A study of Mus musculus with 155 samples.

Results

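The genes described here encode 9 proteins of the myelin membrane: Mbp, Mobp, Mal, Cldn11, Mag, Mog, Cnp, Opalin and Tspan2. They were taken by symbol from the deposited expression matrix, where each had 1 entry among 3422 genes, so all 9 were measured. Each sample was 1 mouse brain cell, sorted from the subventricular zone and corpus callosum by fluorescent reporters and sequenced with SMART-Seq2, which reads full-length polyadenylated transcripts of single cells. The cells formed 5 populations. OligNBL (40 cells) carried both reporters and came from the cross of CB6-Tg(Gad1-EGFP)G42Zjh/J with Olig2-tdTomato TH39Gsat/Mmcd. OL (22 cells) carried Tomato, driven from Olig2, in Olig2-tdTomato TH39Gsat/Mmcd mice. NBL (27 cells) carried GFP, driven from Gad67, the gene also called Gad1, in CB6-Tg(Gad1-EGFP)G42Zjh/J mice. All 3 of these populations were collected 6 days after an injection of LPC, lysophosphatidylcholine, which strips myelin. O (29 cells) and NB (37 cells) were the Tomato and GFP cells of non-injected, healthy mice of the same lines as OL and NBL. A reporter marks cells in which its driver is or was active and does not by itself name a cell type. All mice were 8 to 10 weeks old, with 5 per condition, and every cell came from a reporter-carrying transgenic mouse. No mouse is named for any cell, so each population counts as 1 sample: spreads between cells are given throughout, and no test between populations was made. Populations of different reporters also differ in strain. By their labels, the OligNBL cells belong to lesioned mice, whereas the titles and the deposited cell description mark all 40 as controls, so OligNBL is used here as a population name only.

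Oligodendrocytes wrap axons in compacted layers of their own membrane. Mbp, myelin basic protein, is the cytosolic protein that glues the inner faces of that membrane together, and its mRNA is carried into the processes and translated there. Mobp, a small basic protein, lies in the compact layers as Mbp does. Mal is a lipid-raft protein of membrane sorting, and Cldn11 is the claudin that forms the tight junctions between myelin layers. Mag and Mog are immunoglobulin-domain proteins, Mag at the inner layer facing the axon and Mog at the outer surface of the sheath. Cnp is an enzyme with cyclic nucleotide phosphodiesterase activity that holds open the cytoplasmic channels of myelin and is made from early stages of the lineage. Opalin is a glycoprotein of the oligodendrocyte membrane that appears late in maturation, and Tspan2 is a tetraspanin of myelinating glia. Neuroblasts of the subventricular zone are young neurons and are not known to make myelin.

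The start regions of the genes that differed most in pattern are shown first, because Mal differed between OL and O cells while Opalin and Mog were high in mostly different O cells. The windows come from RefSeq on GRCm38.p6 and run from 250 bases before to 50 after the start, 5′ to 3′ on the gene's strand. Of the 9 genes, 8 matched this table (11 windows); Mbp did not. Capitals mark ACAAAG or its reverse complement CTTTGT, letters of the kind bound by Sox-family factors such as Sox10, and CAGCTG, an E-box of the kind bound by bHLH factors such as Olig2. Mobp is added, after the matches were seen, because it held the largest number of them.
Mal, chr2:127656646-127656945, minus strand: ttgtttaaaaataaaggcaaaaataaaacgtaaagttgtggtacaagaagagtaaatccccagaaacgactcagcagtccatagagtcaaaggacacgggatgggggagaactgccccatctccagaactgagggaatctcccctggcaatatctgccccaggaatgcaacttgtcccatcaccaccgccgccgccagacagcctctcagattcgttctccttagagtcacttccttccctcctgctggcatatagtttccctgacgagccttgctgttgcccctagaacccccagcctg
Opalin, chr19:41077064-41077363, minus strand: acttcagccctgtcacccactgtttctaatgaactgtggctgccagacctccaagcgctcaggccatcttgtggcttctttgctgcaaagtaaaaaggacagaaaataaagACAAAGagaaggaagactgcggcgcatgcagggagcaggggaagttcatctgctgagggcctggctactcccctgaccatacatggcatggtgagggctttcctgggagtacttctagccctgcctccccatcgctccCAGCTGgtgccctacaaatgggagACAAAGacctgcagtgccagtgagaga
Mog, chr17:37023349-37023648, minus strand: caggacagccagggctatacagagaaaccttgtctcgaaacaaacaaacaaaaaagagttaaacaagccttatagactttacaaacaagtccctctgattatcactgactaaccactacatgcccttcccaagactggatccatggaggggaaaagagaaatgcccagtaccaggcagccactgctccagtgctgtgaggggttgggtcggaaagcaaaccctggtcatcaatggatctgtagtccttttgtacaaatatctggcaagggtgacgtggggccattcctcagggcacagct
Mobp, chr9:120149492-120149791, plus strand: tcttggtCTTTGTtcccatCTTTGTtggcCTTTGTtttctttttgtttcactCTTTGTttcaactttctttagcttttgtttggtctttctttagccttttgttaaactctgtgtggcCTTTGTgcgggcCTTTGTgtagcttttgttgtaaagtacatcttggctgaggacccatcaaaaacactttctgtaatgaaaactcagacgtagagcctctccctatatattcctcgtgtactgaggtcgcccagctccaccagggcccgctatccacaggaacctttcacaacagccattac

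ACAAAG, searched on both strands, was found 6 times in the Mobp window, 2 times in that of Opalin and 1 time in that of Cnp. It was found 1 time in 2 of the 3 overlapping or neighbouring windows of Mag and in 1 of the 2 of Tspan2. Those 2 Mag windows overlap and hold the same single site. The windows of Mal, Cldn11 and Mog held none, and CAGCTG occurred 1 time, in the Opalin window. ACAAT, another core of Sox sites, was in none of the 11 windows. Of 32841 mouse windows of the same length, 18.7% held ACAAAG, 31.03% held ACAAT and 16.3% held CAGCTG.

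On GRCm38, with GENCODE vM21, the genes lie on 8 chromosomes. Mbp spans chr18:82475146-82585637 on the plus strand, Mobp chr9:120149707-120181484 on the plus strand, and Mal chr2:127633226-127656695 on the minus strand. Cldn11 spans chr3:31149920-31164324 and Tspan2 chr3:102734529-102801513, both on the plus strand. Mag spans chr7:30899176-30914873, Mog chr17:37010743-37023398 and Opalin chr19:41061710-41077113, all on the minus strand, and Cnp spans chr11:100574904-100591729 on the plus strand. All 9 are protein-coding genes, and the deposited values are per gene, not per exon or isoform.

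A level is log2(value + 1), averaged over cells and given with its SD among them. The deposited values are named estimated counts but were normalised so that cells share one distribution: the 8 highest values were equal in all cells (relative tolerance 1e-06), and cell totals differed by at most 0.101%. Sequencing depth is therefore unknown, and the values are not scaled by transcript length, so levels are compared between cells and not between genes. A gene was detected where its value exceeded the lowest value of the cell, and present where it was among the 500 highest genes of the cell. The median number of genes detected was 1397 in OligNBL, 950.5 in OL, 1161 in NBL, 1187 in O and 1114 in NB cells. Cells are named as in their titles, CRBT and a number. Neighbouring numbers were alike beyond the 9 genes: over the other 3413 genes, OL cells numbered at most 4 apart correlated at 0.49 (mean of 75 pairs) and those at least 17 apart at 0.27 (18 pairs), with 0.53 and 0.34 in O. OL cells CRBT176 and CRBT177 were the most alike pair within any population, at a correlation of 0.89, and their levels of the 9 genes differed by a mean of 0.34. The sources used here do not say what the numbers stand for, and whether they mark mice, plates or sorting order was not tested. OL cells lay between CRBT172 and CRBT194, and O cells between CRBT195 and CRBT222 apart from CRBT19 and CRBT21. A difference between OL and O can therefore not be told apart from one between runs of numbers.

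Each of the 9 genes was detected in a larger share of OL and O cells than of cells in the 3 populations that carry GFP. OL and O are called the Tomato populations below because OligNBL also carries GFP. Not all 9 were high in O, where Mobp and Mal had a median level of 0. In the GFP-carrying populations most values were the lowest of the cell, but Cnp reached 8.37 in an NBL cell. OL cells had a mean of 7.55 ± 1.65 of the 9 genes detected (SD, n = 22; lowest 4, median 8, highest 9). O cells had 6.00 ± 1.46 (SD, n = 29; lowest 3, median 6, highest 8). OligNBL cells had 0.5 ± 0.641 (SD, n = 40), NBL cells 0.444 ± 0.698 (SD, n = 27) and NB cells 0.270 ± 0.608 (SD, n = 37). All 9 were detected together in 9 of 22 OL cells and in 0 of 29 O cells. None was detected in 23 of 40 OligNBL, 18 of 27 NBL and 29 of 37 NB cells. Counted as present among the 500 highest genes, the mean was 6.27 ± 2.12 in OL and 4.14 ± 1.27 in O cells, against 0.05 ± 0.221 in OligNBL, 0.111 ± 0.320 in NBL and 0.0571 ± 0.236 in the 35 NB cells with at least 500 genes detected.

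**Figure D1:**
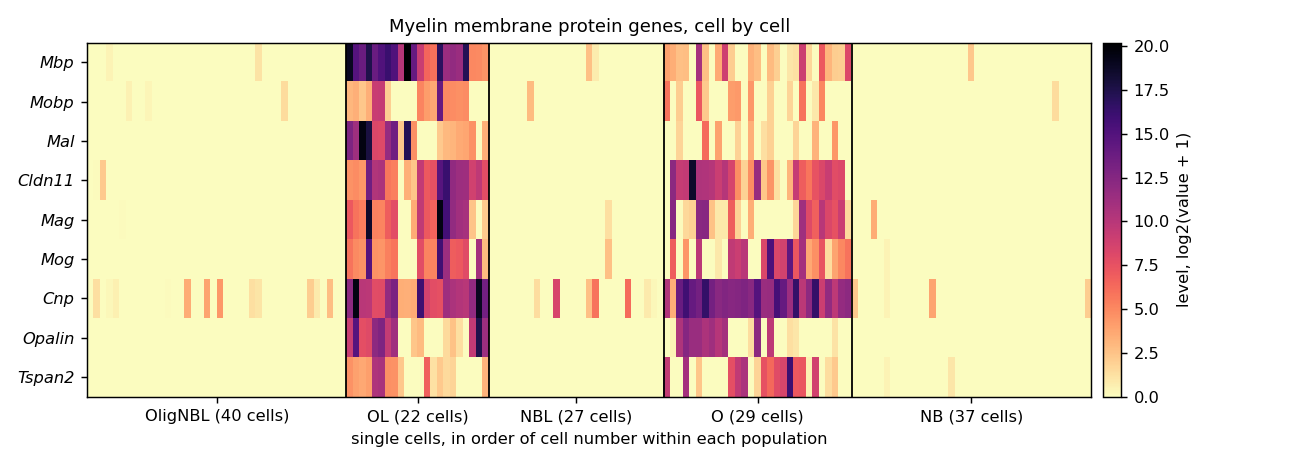
Level, log2(value + 1), of each of the 9 genes (down) in each cell (across), ordered by cell number within OligNBL, OL, NBL, O and NB, with darker colour for a higher level. Colour fills the OL and O blocks in runs of neighbouring cells. The OligNBL, NBL and NB blocks hold scattered cells with colour, most of them faint and most in the Cnp line.

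Among the genes of compact myelin, Mbp showed the clearest difference between lesioned and healthy Tomato cells. Its lowest, median and highest levels were 4.51, 13.82 and 20.19 in the 22 OL cells, against 0, 2.67 and 10.85 in the 29 O cells, and it was detected in 22 of 22 OL and 22 of 29 O cells. Among OL cells, 15 of 22 lay above the highest O cell, and 24 of 29 O cells lay below the lowest OL cell, although the ranges overlapped. The mean was 12.47 ± 4.79 in OL and 3.00 ± 3.02 in O cells, a difference of 9.47 on the log2 scale. In the GFP-carrying populations Mbp was detected in 2 of 40 OligNBL cells (highest level 1.11), 2 of 27 NBL cells (highest 2.67) and 1 of 37 NB cells (2.29).

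Mal followed, with lowest, median and highest levels of 0, 4.18 and 19.50 in OL cells, against 0, 0 and 6.29 in O cells. Detection was in 18 of 22 OL and 10 of 29 O cells, and 9 OL cells lay above the highest O cell. Its mean was 6.84 ± 6.22 in OL and 1.02 ± 1.69 in O cells, a difference of 5.82 that is smaller than the SD between OL cells. Mal was detected in 0 of 40 OligNBL, 0 of 27 NBL and 0 of 37 NB cells. Mobp averaged 3.59 ± 3.63 in OL cells (lowest 0, median 3.37, highest 14.02) and 1.58 ± 2.29 in O cells (0, 0 and 7.24). It was detected in 15 of 22 OL and 12 of 29 O cells and in 3 OligNBL, 1 NBL and 1 NB cell. The 2 populations of Tomato cells overlapped widely in Mobp.

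Of Mag, Mog and Cldn11, the genes of the sheath's surfaces and junctions, only Mag differed by more than 2 between the Tomato populations. Mag was present in 17 of 22 OL and 11 of 29 O cells. Mag had lowest, median and highest levels of 0, 6.72 and 19.50 in OL cells, against 0, 1.83 and 12.38 in O cells, with means of 7.38 ± 5.51 in OL and 4.18 ± 4.52 in O. It was detected in 19 of 22 OL and 21 of 29 O cells. Mog had 0, 5.25 and 15.86 in OL cells, against 0, 4.98 and 15.25 in O cells, with means of 5.98 ± 4.36 in OL and 5.35 ± 4.60 in O. The Mog difference of 0.63 was under the threshold of 1 used here. Cldn11 had 0, 8.29 and 16.20 in OL cells, against 0, 8.16 and 18.54 in O cells, with means of 8.22 ± 4.14 in OL and 7.09 ± 4.29 in O. The OL and O ranges of Mog and Cldn11 nearly coincided, and for Mag the highest OL cells lay above all O cells. In OligNBL cells Cldn11 was detected 2 times (highest level 2.22), Mag 1 time (0.11) and Mog 0 times. In NBL cells Mag (1.28) and Mog (2.68) were detected 1 time each and Cldn11 0 times, and in NB cells Mag (3.48) and Mog (0.41) 1 time each and Cldn11 0 times.

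Cnp was detected in more cells than any other of the 9 genes and was lower in OL than in O. Its lowest, median and highest levels were 3.33, 10.10 and 19.50 in OL cells, against 3.39, 12.38 and 16.42 in O cells, and it was detected in every one of the 22 OL and 29 O cells. The mean was 10.37 ± 4.31 in OL and 12.52 ± 2.67 in O cells, a difference of -2.15, smaller than the SD between OL cells. In the GFP-carrying populations it was detected in 12 of 40 OligNBL cells (30%, exact Clopper-Pearson 95% interval 16.6% to 46.5%), 7 of 27 NBL cells (25.9%, 11.1% to 46.3%) and 4 of 37 NB cells (10.8%, 3.03% to 25.4%). The intervals overlap; they cover counting error only and take cells as independent.

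Opalin and Tspan2 varied widely from cell to cell. Opalin had lowest, median and highest levels of 0, 5.28 and 17.50 in OL cells, against 0, 0.43 and 12.44 in O cells, with means of 6.08 ± 5.69 in OL and 3.98 ± 5.24 in O. It was detected in 16 of 22 OL and 15 of 29 O cells and in 0 OligNBL, 0 NBL and 0 NB cells. Tspan2 had 0, 2.28 and 10.71 in OL cells, against 0, 2.27 and 16.06 in O cells, with means of 3.00 ± 3.16 in OL and 4.34 ± 4.66 in O. Detection of Tspan2 was 15 of 22 in OL and 18 of 29 in O cells, 0 in OligNBL and NBL, and 2 of 37 in NB, where the highest level was 0.96. For both genes the SD between cells was close to or above the mean in OL and in O, as it was for Mal and Mobp.

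**Figure D2:**
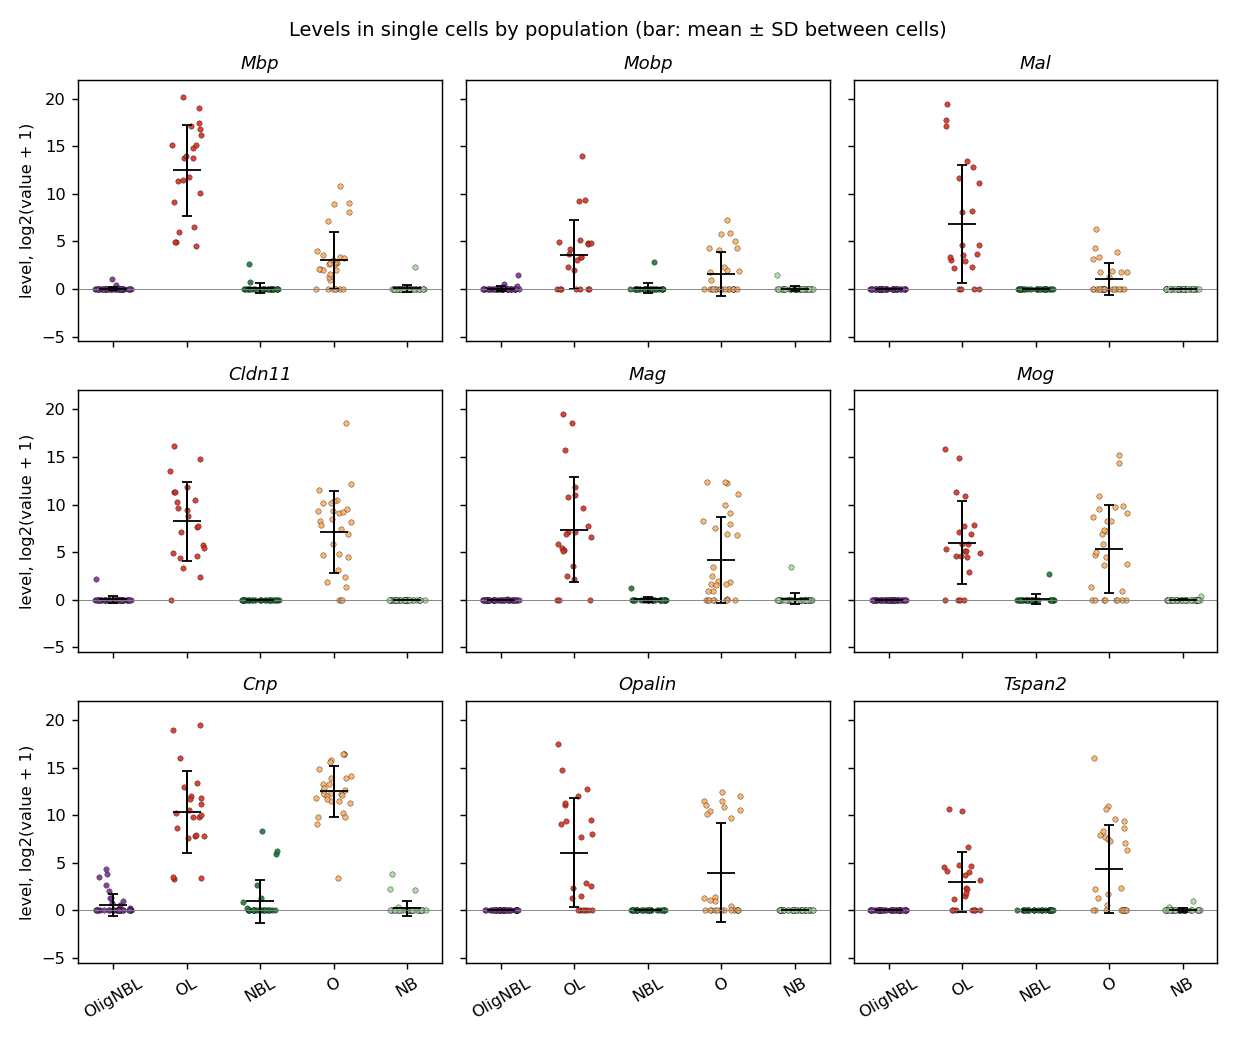
Level, log2(value + 1), of each gene in single cells of OligNBL, OL, NBL, O and NB; points are cells, and bars show the mean and the SD between cells. Mbp OL cells lie between 4.51 and 20.19 and O cells between 0 and 10.85, while the OL and O ranges of Mog and Cldn11 nearly coincide.

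For OL against O, the comparison of oligodendrocyte-lineage cells from lesioned and healthy tissue, a gene was called where the difference of levels was at least 1 and it was detected in at least 10% of the cells of either population. All 9 genes passed that filter. Of them, 6 were called higher in OL, against a background of 18.1% of 3013 genes, and 2 were called lower, against 17.8%. In falling order, Mbp was higher by 9.47, Mal by 5.82, Mag by 3.20, Opalin by 2.10, Mobp by 2.02 and Cldn11 by 1.14, Mog was not called at 0.63, and Tspan2 and Cnp were lower, at -1.35 and -2.15. The median difference was 2.02 for the 9 genes and -0.17 for all genes tested. Only the Mbp difference exceeded the larger of the SDs between cells. The ranges of OL and O cells overlapped for all 9, as for every gene tested (0% apart).

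Markers of other cell types also differed between these populations. Of 8 listed genes of mature neurons 2 were measured, of which Snap25 averaged 2.02 ± 3.26 in OL and 6.20 ± 5.22 in O cells, and Map2 0.10 ± 0.46 in OL and 0.20 ± 0.57 in O. Pecam1, the 1 measured of 8 listed endothelial genes, averaged 8.49 ± 2.87 in OL and 10.53 ± 1.83 in O cells. S100b, the 1 measured of 8 astrocyte genes, averaged 2.30 ± 1.56 in OL and 1.93 ± 1.55 in O, and Cspg4, the 1 measured of 6 mural genes and also a progenitor gene, 0.10 ± 0.46 in OL and 1.62 ± 2.01 in O. Snap25, Pecam1 and Cspg4 were thus lower in OL. Summed over the 16 measured of 19 listed neuroblast genes, the level ran from 4.49 to 40.31 in OL cells (median 17.94) and from 3.00 to 32.47 in O cells (median 13.97). Of the listed genes, 0 of 10 microglial and 0 of 6 ependymal ones matched the matrix used here, so these cell types were not analysed here. The part of these markers in the differences of the 9 genes was not tested.

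**Figure D3:**
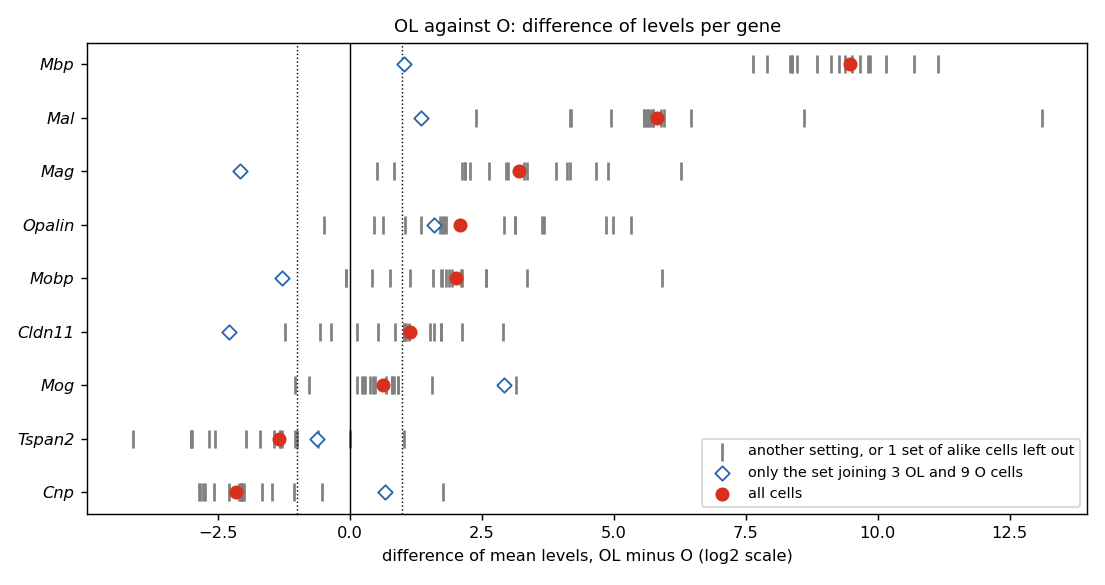
Difference of mean levels, OL minus O, on the log2 scale for each gene; red circles use all cells, open diamonds only the 3 OL and 9 O cells that fell in 1 set of alike cells, and grey ticks are other settings or 1 set left out. Mbp and Mal stay right of the dotted line at 1 at every mark, and the marks of Cldn11, Opalin, Mobp, Mag, Mog, Tspan2 and Cnp cross it or its mirror at -1.

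Levels differed between sets of alike cells for the 9 genes in OL and for some of them in O. The sets were built by average linkage on the correlation of the 3413 other genes, joined at a mean correlation of 0.4, so the 9 genes took no part. Of the 20 sets, 4 held cells of more than 1 population. OL cells fell in 4 sets that were runs of cell numbers, CRBT172 to CRBT179 (8 cells), CRBT180 to CRBT182 (3), CRBT183 to CRBT190 (8) and CRBT192 to CRBT194 (3). O cells fell in 3 larger sets, cells CRBT195 to CRBT202 with CRBT208 (9 cells), cells CRBT203, CRBT205, CRBT206 and CRBT209 to CRBT215 (10 cells) and cells CRBT21, CRBT207 and CRBT216 to CRBT222 (9 cells), while O cell CRBT19 stood in a set with 2 OligNBL cells and 1 NB cell.

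The first OL run, cells CRBT172 to CRBT179, had nearly all 9 genes in every cell. All 9 genes were detected in 7 of its 8 cells, and the other one lacked Mobp alone. Mbp ran from 13.82 to 18.99 there, Mal from 8.06 to 19.50 (mean 12.84 ± 4.09), Opalin from 7.69 to 14.77 (mean 10.61 ± 2.50) and Tspan2 from 3.68 to 10.71 (mean 5.86 ± 2.93). In cells CRBT183 to CRBT190, Mbp was still present in 8 of 8 cells (mean 11.29 ± 4.16), and Mag (11.52 ± 4.30), Cldn11 (11.21 ± 3.18), Mog (8.41 ± 3.58) and Mobp (5.80 ± 3.36) were present in all 8. In those same cells Mal averaged 1.95 ± 1.67 and Opalin 1.03 ± 1.21, and Opalin was present in 0 of 8. Mbp, Mag, Mog, Cldn11 and Cnp were present in every cell of both runs. The runs differed in Mal and Opalin, in Tspan2 (present in 8 of 8 cells of the first run and 1 of 8 of the other) and in Mobp (2 of 8 and 8 of 8).

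The 3 OL cells CRBT180 to CRBT182 had Mbp at 10.09, 14.02 and 20.19 and Mal at 2.32, 4.66 and 17.16, with Mobp and Mog detected in none of them and Cnp between 3.33 and 3.51. The 3 OL cells CRBT192 to CRBT194 differed from these. They had the lowest Mbp levels of OL, at 4.51, 4.96 and 4.97, together with Cnp between 11.83 and 18.99 and Opalin between 9.48 and 17.50. These last 3 cells shared a set with 9 O cells, CRBT195 to CRBT202, which follow them in number, and CRBT208. Within that set Mbp averaged 4.81 in the 3 OL cells and 3.79 in the 9 O cells, a difference of 1.02, and Mal averaged 2.67 in OL and 1.32 in O, a difference of 1.35. Opalin was present in all of them and averaged 12.76 in OL and 11.17 in O. Cldn11, Mag and Mobp were lower in the OL cells of this set, by differences of -2.29, -2.08 and -1.28, and Mog was higher by 2.92. The Mbp difference of 1.02 in this set compares with 9.47 over all cells, and rests on 3 OL cells.

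The 3 larger sets of O cells differed in Opalin, Mog and Tspan2. In O cells CRBT195 to CRBT202 and CRBT208, Opalin lay between 10.09 and 12.44 in 9 of 9 cells and Cldn11 between 9.12 and 18.54, while Mog was present in 2 and Tspan2 in 1. In the 10 O cells CRBT203, CRBT205, CRBT206 and CRBT209 to CRBT215, Mog lay between 7.23 and 15.25 and Tspan2 between 6.38 and 16.06, present in 10 of 10, and Opalin was present in 1. In the 9 O cells CRBT21, CRBT207 and CRBT216 to CRBT222, Mag was detected in 9 of 9 (1.56 to 12.34; mean 7.44 ± 3.27), Opalin was present in 0 and Tspan2 in 1. Mog was present in 7 of these 9 cells, with a mean of 4.29 ± 2.43, so Mog and Tspan2 did not go together there. Cnp was high in all 3 of these sets, with means of 14.05 ± 1.41, 12.79 ± 2.04 and 10.95 ± 3.49 in the order given. Mbp averaged 3.79 ± 3.71, 1.82 ± 2.74 and 3.42 ± 2.63 in that order, so the low Mbp of O cells was common to all 3 sets.

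**Figure D4:**
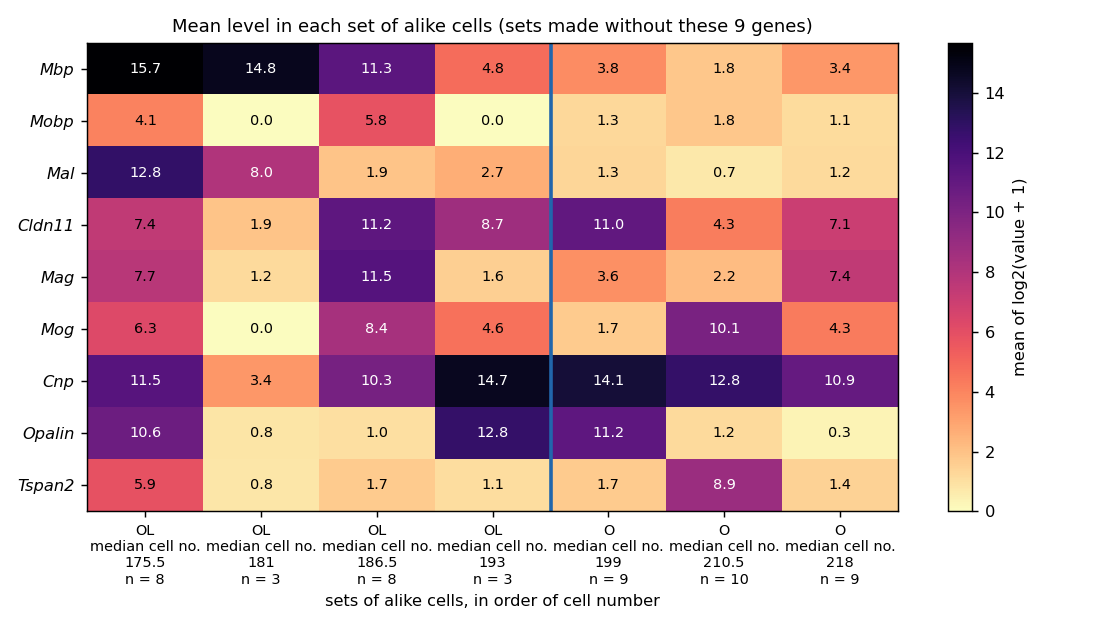
Mean level, mean of log2(value + 1), of each gene (down) in the 4 sets of OL cells and the 3 larger sets of O cells (across, by cell number, split by the blue line), with the value written in each field; sets were built without these 9 genes, and O cell CRBT19 is not shown. Mbp runs from 15.68 in the first OL set to 1.82 in an O set, and Opalin is high in 2 OL sets and 1 O set.

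As a description of the spread, the sets held 86.3% of the variance of Opalin between OL cells and 88.2% between O cells. In OL cells the share was 66.03% for Mal, 59.3% for Mbp and 55.9% for Mag, and the lowest of the 9 was Mog at 40.2%, against a median of 24.9% over 2246 genes. In O cells it was 65.9% for Mog, 60.9% for Tspan2 and 52.2% for Cldn11, against a median of 12.9% over 2839 genes. It was 8.66% for Mbp and 4.19% for Mal in O cells. Single O cells reached 10.85 for Mbp and 6.29 for Mal. The mean difference of the 9 levels between OL cells at most 4 numbers apart was 4.32, against 6.02 at 17 or more apart, and in O cells 3.23 against 4.33. How far the sets mark mice, handling or cell states was not tested.

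Leaving out single sets moved the OL against O differences of most genes, and Mbp, Mal and Cnp kept their call each time. A set left out means, throughout, its cells of 1 population, where these were at least 3. Without OL cells CRBT172 to CRBT179 the Mal difference was 2.39 and that of Opalin -0.49. Without OL cells CRBT183 to CRBT190 Mag differed by 0.83, Mobp by 0.76, Cldn11 by -0.57 and Tspan2 by -0.60, and the count of called genes was 4 in place of 8. Without O cells CRBT195 to CRBT202 and CRBT208 Opalin differed by 5.33, Cldn11 by 2.91, Mog by -1.03 and Tspan2 by -2.55, and 9 genes were called. Opalin and Cldn11 thus moved up and Mog and Tspan2 down without these 9 O cells. Without O cells CRBT203, CRBT205, CRBT206 and CRBT209 to CRBT215, Tspan2 differed by 1.03, Cldn11 by -0.35, Mog by 3.15 and Opalin by 0.63. Without O cells CRBT21, CRBT207 and CRBT216 to CRBT222 Opalin differed by 0.45 and Tspan2 by -2.66, and without OL cells CRBT180 to CRBT182 Cldn11 differed by 2.13 and Cnp by -1.05. Over these 7 ways of leaving out the OL or the O cells of a set, the Mbp difference stayed between 7.64 and 10.68. With cells CRBT176 and CRBT177 counted as 1 cell, 8 genes were called, as before. When the mean value was taken before the logarithm, Cnp was higher in OL by 1.76 and Cldn11 lower, at -1.23.

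Pairs of the 9 genes went together in some cells and apart in others. Across the 22 OL cells, 21 of 36 pairs had a positive Spearman correlation, with a median of 0.11 and a range of -0.31 to 0.80. The highest were Mag with Mog (0.80), Cldn11 with Mog (0.72), Mbp with Mal (0.68) and Mobp with Cldn11 (0.68). Across the 29 O cells, 17 of 36 pairs were positive, with a median of -0.02. Cldn11 went with Opalin (0.70) and Mog with Tspan2 (0.58), and the lowest values were Cldn11 with Tspan2 (-0.49), Mog with Opalin (-0.44) and Cldn11 with Mog (-0.44). Cldn11 and Mog thus had opposite signs in OL and O cells. The correlations describe these cells, which share normalisation and fall into the sets above. With the number of genes detected, the 9 genes correlated between -0.15 (Opalin) and 0.38 (Mag) in OL and between -0.41 (Mobp) and 0.02 (Mal) in O cells.

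**Figure D5:**
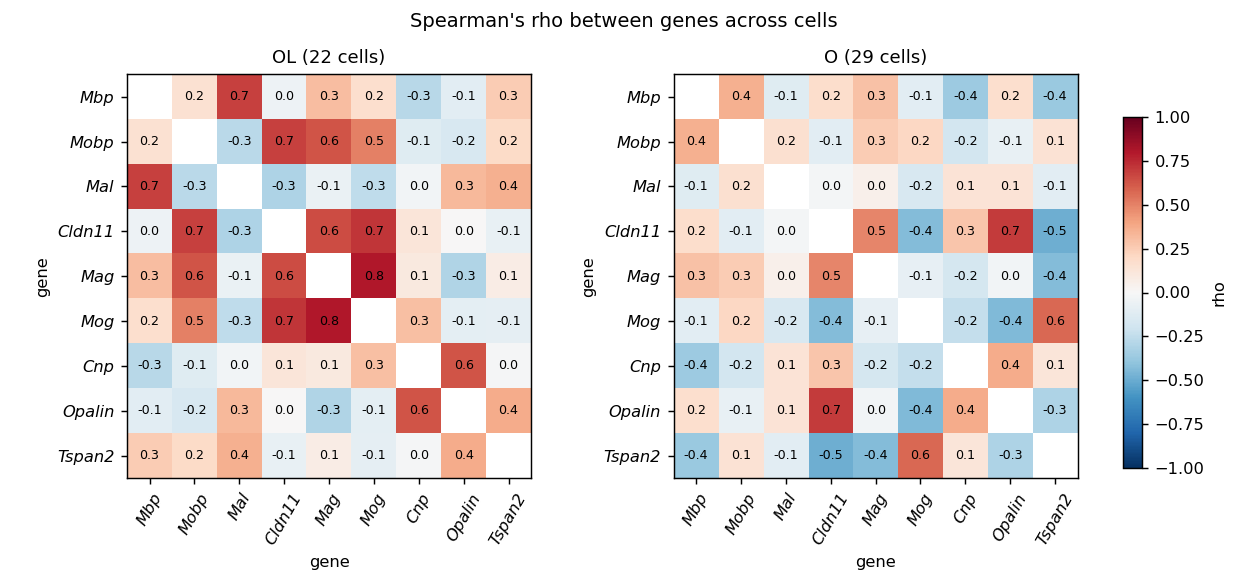
Spearman's rho between the levels of each pair of genes across the 22 OL cells (left) and the 29 O cells (right), red for positive and blue for negative, with the value rounded to 1 decimal. Mag, Mog, Cldn11 and Mobp form a red block in OL cells, and Tspan2 is red only with Mog beyond 0.5 in O cells.

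OligNBL against OL sets the doubly labelled cells beside the Tomato cells of the lesion. All 9 genes were called lower in OligNBL, against a background of 22.2% of 3254 genes, and none was higher, against 28.7%. Only Cnp was detected in at least 10% of OligNBL cells, so the other genes passed the filter through OL alone. For those genes a call of higher was hardly possible, and the count is a description only. The differences were -12.44 for Mbp, -9.83 for Cnp, -8.17 for Cldn11, -7.38 for Mag, -6.84 for Mal, -6.08 for Opalin, -5.98 for Mog, -3.53 for Mobp and -3.00 for Tspan2. Their median was -6.84, against 0.18 for all genes tested. For 7 of the 9, all but Mobp and Tspan2, the difference exceeded the larger SD between cells. Mbp was the 1 gene of the 9 whose ranges did not overlap, with at most 1.11 in OligNBL and at least 4.51 in OL cells; the background for ranges apart in this direction was 0.154%. Over the 16 measured neuroblast genes the summed level ran from 27.53 to 94.29 in OligNBL cells (median 52.59), against 4.49 to 40.31 in OL cells (median 17.94), and 11 of the 16 were called higher and 0 lower in OligNBL. The part of these genes, of the strain and of the conflicting control mark in the difference was not tested.

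OligNBL against NBL compares doubly labelled with GFP-only cells. Only Cnp reached the 10% detection filter, and it was not called. Its lowest, median and highest levels were 0, 0 and 4.38 in OligNBL cells, against 0, 0 and 8.37 in NBL cells, with means of 0.55 ± 1.15 in OligNBL and 0.95 ± 2.23 in NBL, a difference of -0.40. The background was 27.8% of 3162 genes higher and 21.9% lower. Of the 9 genes, Mal, Mog, Opalin and Tspan2 were at the lowest value in all 40 OligNBL cells, and Mal, Cldn11, Opalin and Tspan2 in all 27 NBL cells. A count of 0 present cells, with the limit taken as 3 cells of the total, allows a share of up to 7.50% of OligNBL, 11.1% of NBL and 8.57% of the 35 NB cells, for counting error only.

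NBL against NB compares GFP cells of lesioned and healthy mice. Here too Cnp alone passed the filter and was not called: it averaged 0.95 ± 2.23 in NBL and 0.23 ± 0.79 in NB cells, a difference of 0.72, against a background of 20.5% of 2907 genes higher and 20.4% lower. The 3 highest Cnp levels among all GFP-carrying cells were in NBL, at 8.37 (cell CRBT67), 6.29 (cell CRBT79) and 5.88 (cell CRBT74), while the highest in OligNBL was 4.38 (cell CRBT121) and in NB 3.85 (cell CRBT30). Among cells with at least 1000 genes detected, Cnp was called higher in NBL.

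Some of the scattered detections in the GFP-carrying cells were faint. In each cell the commonest value above the lowest was taken as a mark of the faintest detections. In OligNBL the 9 genes gave 20 detected values in 17 cells, of which 5 (25%) were at or under that mark, against 14.5% of the detected values of all genes. NBL gave 12 values in 9 cells with 3 (25%) at or under it, against 16.2%, and NB 10 values in 8 cells with 6 (60%), against 15.4%. In the Tomato cells the shares were 7.23% in OL, against 19.1% for all genes, and 13.2% in O, against 18.1%. Faint values were thus a larger share of the detections of the 9 genes than of all genes in GFP-carrying cells and a smaller share in Tomato cells. The shares in GFP-carrying cells rest on few values. In NB, 3 of the 6 came from cell CRBT6 (Mog, Cnp and Tspan2). Mag in NB cell CRBT4 was at the mark although it was present, at rank 460.

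O against NB compares the Tomato and GFP cells of healthy mice. All 9 genes were called higher in O, against a background of 21.4% of 3101 genes, and none was lower, against 22.8%. Only Cnp was detected in at least 10% of NB cells, so the other genes passed the filter through O alone. For those genes a call of lower was hardly possible, and the count is a description only. Cnp was higher by 12.29, Cldn11 by 7.09, Mog by 5.34, Tspan2 by 4.30, Mag by 4.08, Opalin by 3.98, Mbp by 2.94, Mobp by 1.54 and Mal by 1.02. The median was 4.08, against 0.16 for all genes tested, and for Cnp, Cldn11 and Mog the difference exceeded the larger SD between cells. The ranges overlapped for all 9, against 0.129% of genes with every O cell above every NB cell. The summed neuroblast level ran from 3.00 to 32.47 in O cells (median 13.97), against 9.68 to 79.86 in NB cells (median 41.04). The order of the 9 genes differed from that in OligNBL against OL, where Mbp came first; the comparisons above share populations (OL, O, NBL, NB or OligNBL) and are not independent.

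Other genes of myelin and of mature oligodendrocytes gave the setting. Of 25 listed genes of other myelin structure 11 were measured, and 2 were called higher in OL than in O and 4 lower, with a median of -0.47. Over all genes tested, 18.1% were called higher and 17.8% lower, so the count higher in OL lay near that share. Cd9, a tetraspanin like Tspan2, averaged 5.02 ± 3.12 in OL and 1.09 ± 1.85 in O cells. Lower in OL were Pllp, a relative of Mal (1.12 ± 2.58 in OL and 4.44 ± 5.72 in O), the tetraspanin Cd82 (0.65 ± 2.14 in OL and 3.65 ± 3.77 in O), and Nfasc, which holds paranodal and nodal contacts (1.35 ± 2.45 in OL and 3.38 ± 3.49 in O). Against OL, OligNBL had 2 of these 11 higher and 5 lower, with shares of 28.7% and 22.2% over all genes. Gpm6b, a membrane glycoprotein also made by neurons, averaged 6.09 ± 4.71 in OligNBL and 1.17 ± 2.37 in OL cells. Against NB, O had 6 higher and 0 lower, with a median of 1.28 and shares of 21.4% and 22.8% over all genes.

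Of 24 listed other genes of mature oligodendrocytes 15 were measured, and 5 were called higher and 5 lower in OL than in O, with a median of 0.33. The shares over all genes tested were 18.1% higher and 17.8% lower. Trf, the iron carrier transferrin, averaged 14.72 ± 4.58 in OL and 15.19 ± 2.92 in O cells. Dapk1, a death-associated kinase (2.85 ± 4.62 in OL and 8.81 ± 5.27 in O), Abca2, a lipid transporter (5.01 ± 3.98 in OL and 9.65 ± 5.63 in O), and Gsn, the actin-severing gelsolin (6.72 ± 4.95 in OL and 11.04 ± 3.67 in O), were lower in OL. Against OL, OligNBL had 14 of the 15 lower and 1 higher, with a median of -6.48 and shares of 22.2% and 28.7% over all genes. Against NB, O had 12 higher and 1 lower, with a median of 7.73 and shares of 21.4% and 22.8% over all genes.

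Of 4 measured genes of myelin lipid synthesis, the desaturase Scd2 (3.67 ± 3.78 in OL and 0.75 ± 1.36 in O) and Gltp, a glycolipid transfer protein (2.61 ± 3.09 in OL and 0.62 ± 1.68 in O), were higher in OL. Ugt8a, which makes galactosylceramide, was lower (1.51 ± 2.02 in OL and 4.27 ± 4.23 in O). Of 6 measured regulators of oligodendrocyte genes, Sox10 alone was called, averaging 4.47 ± 5.25 in OL and 1.94 ± 4.05 in O cells. Over all genes tested, 18.1% were called higher and 17.8% lower in OL, so 1 of 6 lay near that share. The same shares are the background of the other OL against O counts in this paragraph. Of 3 measured genes of newly formed oligodendrocytes, Bcas1 (4.25 ± 5.17 in OL and 1.37 ± 3.25 in O) and Sirt2 (2.47 ± 3.19 in OL and 0.85 ± 1.14 in O) were higher in OL, and Tcf7l2 was not called. Among relatives of the 9 genes by family, 11 were tested in OL against O, with 3 higher, 4 lower and a median of -0.77. The called genes Cd9, Pllp, Cd82 and Tspan15 are also in the list of other myelin structure, so these counts overlap. Of 6 measured progenitor genes, 1 was higher and 1 lower in OL than in O, namely Sox10 and Cspg4, which were counted in other lists above. In OligNBL against OL, 4 of the progenitor genes were higher, among them Cspg4 (4.08 in OligNBL and 0.10 in OL) and Pdgfra (4.05 in OligNBL and 0.77 in OL). Sox10 was the 1 that was lower. The shares over all genes there were 28.7% higher and 22.2% lower.

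The genes most like the 9 were found by Spearman correlation with their mean level. Over all cells, among 3320 genes, these were Trf (0.83), Ptgds (0.81), Sept4 (0.80), Gsn (0.80) and Phgdh (0.80). Ptgds, a prostaglandin synthase, averaged 9.16 ± 4.87 in OL and 10.52 ± 2.99 in O cells, and Phgdh, of serine synthesis, 9.16 ± 3.75 in OL and 7.46 ± 4.95 in O. Over the 51 O and OL cells, among 2719 genes, they were Atp6v1f (0.75), Sec11c (0.74), Sphk2 (0.70), Grb14 (0.69) and Fam96a (0.67), so the lists share no gene. Atp6v1f, a subunit of the vacuolar proton pump, averaged 4.60 ± 3.66 in OL and 0.52 ± 1.57 in O cells. Sec11c, a subunit of the signal peptidase, averaged 5.24 ± 4.34 in OL and 0.60 ± 1.48 in O, and the sphingosine kinase Sphk2 6.80 ± 4.97 in OL and 1.29 ± 2.80 in O. The first 5 were high in both Tomato populations, and the second 5 had higher means in OL than in O. Cells share sets and normalisation, so the correlations are descriptions.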

How the data were processed

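SMART-Seq2 expression was measured in single mouse cells. The submitters' processing notes name kallisto, limma and GRCm38, with no versions in the sources used here. The deposited signal, named estimated counts, had nearly equal totals (5155900 to 5161090) and equal highest values in every cell, as after quantile normalisation, so no count model was used and depth is unknown. The choice of the 3422 genes is not explained in those sources.

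Levels are log2(value + 1), which understates differences of low genes. Detected means above the lowest value of the cell; NB cell CRBT2 has its lowest value, 0.00585, at 3069 genes. Presence among the 500 highest genes used 153 cells. Population names in the labels gave the groups. No mouse is named, so no p-value was computed. The 9 genes, the lists, the sets and the rule for named genes (all 9, the 5 most like them, up to 4 per list by difference) were chosen with earlier results of these data known; others given with values, such as Trf, Tcf7l2, Pdgfra, Snap25, Map2, S100b, Cspg4 and Pecam1, are list members or markers. A gene that the rule names is not reported here. No cell was removed, and doublets were not called. Only the difference of mean levels was tried on shuffled levels with a known shift added to some genes. Its recovery follows from the way the shift was added, and the trial covered no other step. Software was numpy 2.4.6, scipy 1.17.1, pandas 2.3.3 and matplotlib 3.10.9 under Python 3.11.15. Alternatives varied the pseudocount, filter, cells, average, weighting of sets and call threshold.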

Additional observations from a re-analysis of the deposited data

How the results depend on the processing

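No paired analysis was possible because each population is 1 sample, the numbers in the titles name cells and no test was made. In OL against O, Mbp and Mal kept their call in 18 of 18 alternatives each and Cldn11 in 11. Of the 162 alternative values, 13 of called genes changed sign, and Mog, not called, reached -1.03. The count of called genes, 8, was 4 with sets joined at 0.5 and weighted equally, and ran from 4 to 9 when 1 set was left out. Signs turned for Tspan2 with the median over cells (0.0088), for Cldn11 (-1.23) and Cnp (1.76) with the logarithm of the mean value, and for Mobp with sets weighted equally, joined at 0.4 or 0.35 (-0.063). They also turned within the 1 set that joins OL and O cells, for Mobp (-1.28), Cldn11 (-2.29), Mag (-2.08) and Cnp (0.67). With 1 set left out, Cldn11 ran from -0.57 to 2.91, Opalin from -0.49 to 5.33 and Tspan2 from -2.98 to 1.03. The cause was not tested. Joining sets at 0.5 or 0.35, leaving out sets, the shared set alone and merging the most alike pair were chosen after seeing the data. Calls held in 162 of 162 values for OligNBL against OL, where 9 genes were called throughout, and in 149 of 162 for O against NB (7 to 9 genes with 1 set left out). In both comparisons the genes other than Cnp passed the filter through OL or O alone, so the direction of their calls could hardly change. The logarithm of the mean value gave 1 call, Cnp, in OligNBL against NBL and 1 in NBL against NB, and cells with at least 1000 genes detected gave 1 in NBL against NB. Genes present per cell depended on the definition: above the lowest value of the cell they were 0.5 in OligNBL, 0.444 in NBL and 6.00 in O, and among the 1000 highest 5.66 in O. Of the 5 most like genes over all cells, 3 remained with Pearson correlation and 3 with cells of at least 1000 genes detected, which left 1 of 5 over the O and OL cells. The unknown depth limits every detection.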
